A study of Homo sapiens with 6 samples.

Results

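Transcription elongation by RNA polymerase II is controlled by the positive transcription elongation factor P-TEFb, and the 9 protein genes described here encode this factor, the proteins that hold it inactive and the partners it works with. They were listed by their role in the complex, with earlier results of these data known: HEXIM1, HEXIM2, LARP7, MEPCE, CDK9, CCNT1, CCNT2, AFF4 and ELL2, among 54261 genes in the table. All 9 passed the filter on low counts, as did 15614 genes in all. The cells were A549, a human line established from a lung adenocarcinoma and kept in serum-containing medium. In 3 libraries an siRNA lowered SNHG17, a long noncoding RNA that hosts snoRNAs (si-SNHG17), and in 3 others the cells had a control siRNA (si-NC). Both groups thus share one genetic background. The labels name no siRNA sequence, dose or time, and do not say whether replicates were separate cultures, so that the spread behind each p may be technical only.

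P-TEFb is the kinase CDK9 paired with cyclin T1 (CCNT1) or cyclin T2 (CCNT2). It phosphorylates the polymerase and the pausing factors DSIF and NELF, which lets a paused polymerase move into productive elongation. Much of the cell's P-TEFb is stored in an inactive particle built on the 7SK RNA, in which HEXIM1 or HEXIM2 blocks the kinase, MEPCE caps the 5′ end of the RNA and LARP7 protects its 3′ end. Freed P-TEFb can join the super elongation complex, where AFF4 is the scaffold and ELL2 raises the catalytic rate of the polymerase.

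The 5′ part of 7SK is shown because it is the landing site of the HEXIM proteins, and HEXIM1 is one of the members that changed. HEXIM proteins are known to recognise repeated GAUC motifs there, written GATC in the DNA letters of GENCODE release 29 (GRCh38). The first 80 of the 328 annotated bases lie at chr6:52995621-52995700 on the plus strand. They hold all 3 GATC copies of the transcript, in capitals, at bases 12 to 15, 41 to 44 and 63 to 66 counted from the annotated start.
RN7SK 5′ part: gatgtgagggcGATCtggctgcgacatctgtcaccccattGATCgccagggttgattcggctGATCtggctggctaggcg

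Library totals ran from 8643076 to 12477214 counts, and mitochondrially encoded genes took 4.17% to 4.54% of the counts in si-SNHG17 against 7.26% to 8.08% in si-NC. SNHG17 itself was at 7.82, 8.39 and 11.3 CPM (counts scaled to a library of 1000000) in si-SNHG17 and at 38.7, 36.2 and 51.4 CPM in si-NC, so the target was lower in each library with its siRNA. As defining epithelial markers, KRT7, KRT8 and KRT18 were each at 2130 CPM or more in every library, while EPCAM did not exceed 1.71 CPM. Of 8 immune markers 4 had no count in any library, PTPRC among them, and CD14 was the only one to reach 10 CPM. Of 8 stromal and endothelial markers 1 had no count, and COL1A1 alone passed the filter, with a log2 fold change of 0.06. Summed, the immune markers took 20.2 to 22.9 counts in 1000000 in si-SNHG17 and 31.5 to 44.5 in si-NC, and the 6 epithelial markers 9850 to 10400 and 12000 to 13800. Most of the immune sum was CD14, which fell (log2 fold change -0.88). CD79A, the other immune marker tested, did not pass. The epithelial list went both ways: KRT18 (log2 fold change -0.93), KRT8 (-0.75) and CDH1 (-0.53) fell, KRT19 (0.43) and KRT7 (0.27) rose, and EPCAM did not pass. The part of these markers in the results was not tested. Library si-NC replicate 3 stood apart from its group: a chi-square test of counts gave 8.85 and 8.40 per degree of freedom against si-NC replicates 1 and 2, which differed from each other by 2.25. Within si-SNHG17, replicate 2 gave 4.87 and 4.74 against replicates 1 and 3, which differed from each other by 3.04. Results that rest on si-NC replicate 3 are given with and without it.

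Of the 9 members, MEPCE and HEXIM1 fell and ELL2 rose, while CDK9, AFF4, HEXIM2, LARP7, CCNT1 and CCNT2 did not pass the threshold. The threshold was an adjusted p of 0.05 in edgeR's quasi-likelihood test, adjusted over all genes tested. That test called 39.1% of all genes, 19.6% higher and 19.6% lower, so 3 of 9 members called is close to the share over the transcriptome. The groups did not overlap for 4 of 9 members, against 49.4% of all genes. The median log2 fold change of the 9 was -0.07, against 0.01 over all genes tested, with a range from -1.61 to 1.31. Without si-NC replicate 3, CDK9 joined the genes that were higher and AFF4 those that were lower, which made 5 of 9, when 41.5% of all genes were called, 21% higher and 20.6% lower. In bulk RNA, a change in the amount of a transcript per cell and a change in the share of cells that hold it cannot be told apart.

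**Figure D1:**
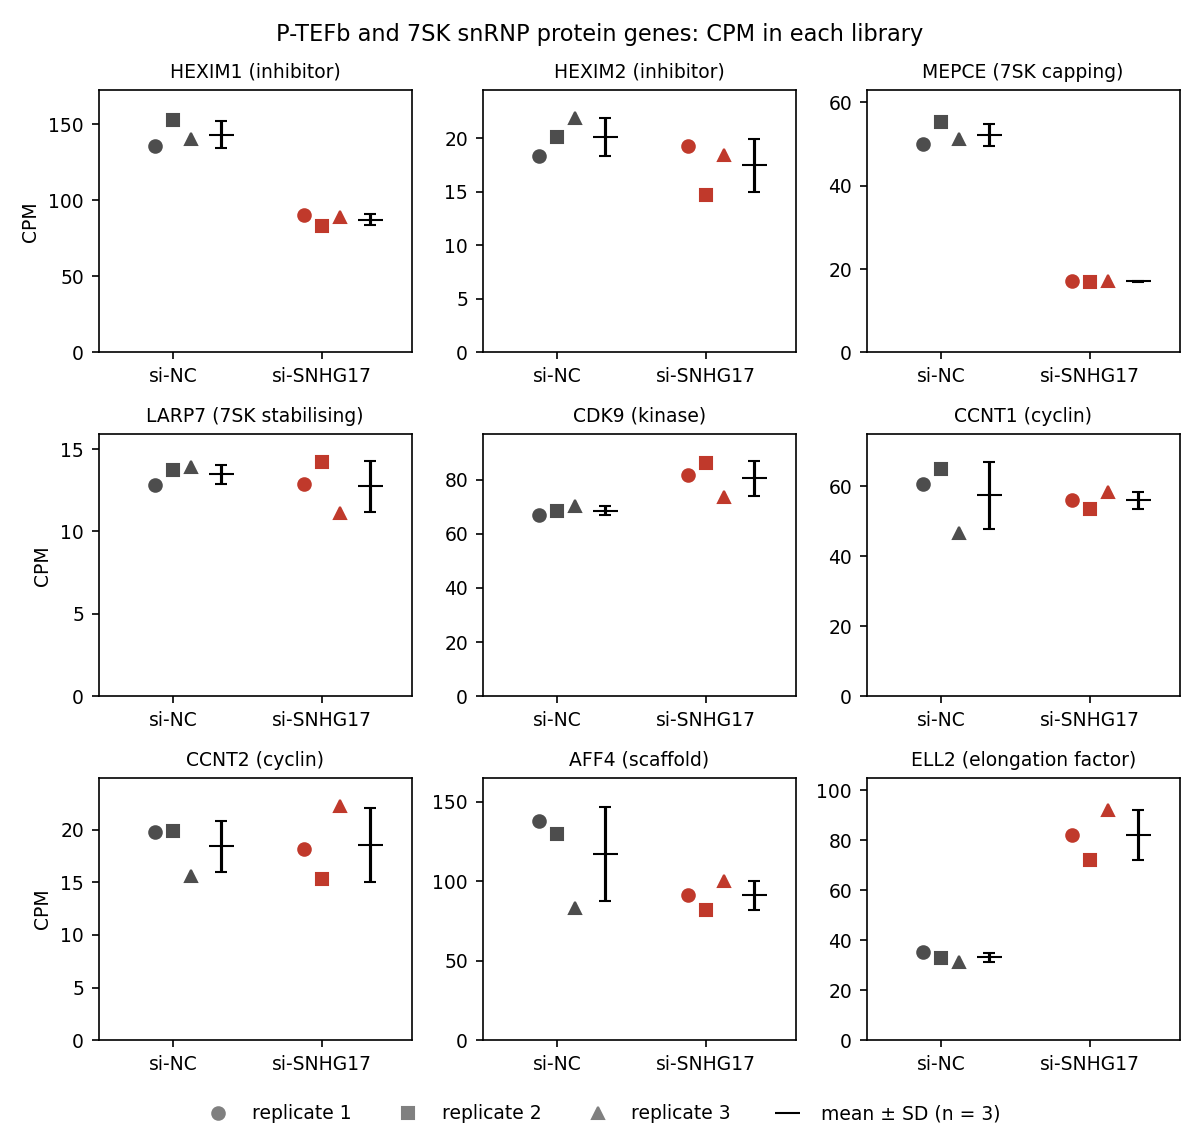
CPM of the 9 member genes in each of the 6 libraries, grey for si-NC and red for si-SNHG17, with one marker shape per replicate number and the mean ± SD (n = 3) beside each group; the vertical axes start at 0 and differ between panels. HEXIM1 and MEPCE are lower and ELL2 is higher in all 3 si-SNHG17 libraries, and AFF4 has one low si-NC library at 83.3 CPM.

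Of the 4 proteins of the 7SK particle, 2 fell, beside 19.6% of all genes tested called lower. HEXIM1, which with 7SK inhibits CDK9, fell to 61.1% of its control level, and MEPCE, the methylphosphate capping enzyme of 7SK, to 32.8%. The paralogue HEXIM2 and the 3′ end protector LARP7 did not pass the threshold, and the row of 7SK RNA itself rose from low counts in si-NC.

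HEXIM1 (ENSG00000186834.3) is a single-exon protein-coding gene at chr17:45148502-45152101 on the plus strand. It was at 90.2, 83.0 and 88.8 CPM in si-SNHG17 and at 136, 153 and 140 CPM in si-NC. The lowest si-NC library was above the highest si-SNHG17 library, and within each group the values lay close together. The means were 87.3 ± 3.81 and 142.9 ± 8.66 CPM (SD, n = 3), a log2 fold change of -0.71 with a standard error of 0.08 and an edgeR adjusted p of 1.31e-05. Among all genes tested, 19.2% had a larger change in either direction. An antisense gene, AC138150.1, overlaps the HEXIM1 exon on the other strand, and whether counting used strand is not given in the sources read for this work.

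MEPCE (ENSG00000146834.13, chr7:100428790-100434126, plus strand) changed most among the members. Its level was 17.1, 17.0 and 17.2 CPM in si-SNHG17, from 164, 213 and 151 counts. In si-NC it was 50.0, 55.2 and 51.3 CPM, from 439, 560 and 548 counts. The si-SNHG17 libraries were nearly alike and every one was far below the si-NC range. Counting error alone would spread such counts more widely, so their closeness is no measure of precision. That is a log2 fold change of -1.61 (standard error 0.10), at an edgeR adjusted p of 5.53e-08. Only 2.48% of the genes tested had a larger change in either direction.

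HEXIM2 lies on the same strand as HEXIM1, 8598 bases downstream of it, and encodes a second inhibitor that can replace HEXIM1 in the particle. It was at 19.3, 14.7 and 18.5 CPM in si-SNHG17 and at 18.4, 20.1 and 21.9 CPM in si-NC. The groups overlapped, and the lowest library was si-SNHG17 replicate 2. The log2 fold change was -0.21 with a 95% interval from -0.51 to 0.08 (edgeR adjusted p = 0.239). The interval excludes a fall as large as the estimate for HEXIM1, while the difference between the genes was not tested.

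LARP7, a La-related protein that binds the 3′ end of 7SK, had the lowest level per length among the particle's proteins in si-NC. Its level ran from 11.1 to 14.2 CPM in si-SNHG17 and from 12.8 to 13.9 CPM in si-NC, so the control range lay inside the other. The log2 fold change was -0.07, with a 95% interval from -0.38 to 0.24 and an edgeR adjusted p of 0.726. Antisense genes also overlap exons of HEXIM2 and LARP7, with the same limit on strand as for HEXIM1.

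RN7SK, the RNA the particle is built on, was at 16.5, 13.2 and 20.2 CPM in si-SNHG17 and at 2.05, 1.18 and 1.22 CPM in si-NC. The counts behind these values were 158, 165 and 177 in si-SNHG17 and only 18, 12 and 13 in si-NC. Every si-SNHG17 library was above every si-NC library, with a log2 fold change of 3.49 (standard error 0.25, edgeR adjusted p = 1.79e-07). The genome holds many copies of 7SK, and 293 rows of the table are named as its pseudogenes. Summed, these rows held 31, 54 and 69 raw counts in si-SNHG17 and 42, 50 and 42 in si-NC, and the groups overlapped. The part of reads shared with these copies in the RN7SK values was not tested. The labels also name no step that selected or depleted RNA, on which the count of a small RNA depends. The low counts of this row may thus not give the amount of 7SK in the cells. Another annotation, RF00100, overlaps the RN7SK exon on the same strand. No label says how reads shared between RN7SK and its copies or this annotation were counted.

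**Figure D2:**
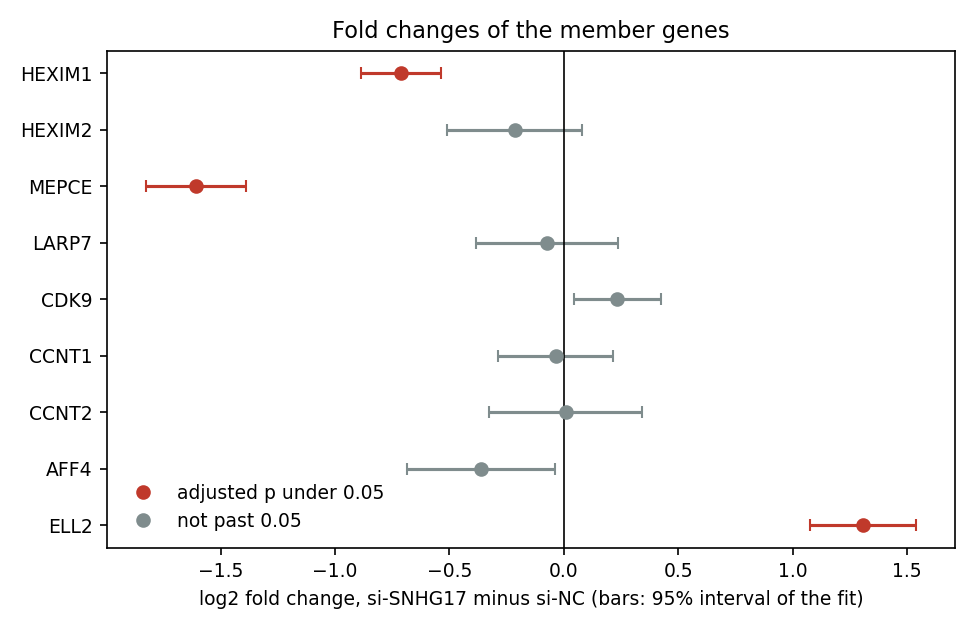
Log2 fold change of each member gene, si-SNHG17 minus si-NC, with the 95% interval of the edgeR fit as a bar; red points passed an adjusted p of 0.05 and grey points did not. MEPCE (-1.61) and HEXIM1 (-0.71) lie left of 0 and ELL2 (1.31) right of it, while the interval of CDK9 (0.04 to 0.42) stays above 0 although its adjusted p was 0.0506.

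The kinase and its cyclins did not pass the threshold. CDK9, the catalytic subunit, was at 81.6, 86.3 and 73.6 CPM in si-SNHG17 and at 66.8, 68.4 and 70.3 CPM in si-NC. The groups did not overlap, but si-SNHG17 replicate 3 came close to the control range. Its log2 fold change of 0.23 (standard error 0.09) had an unadjusted p of 0.0199 and an edgeR adjusted p of 0.0506, just outside the threshold. It passed with library totals and no scaling (adjusted p = 0.0241), with robust dispersion (0.0484), without si-SNHG17 replicate 3 (0.0330) and without si-NC replicate 3 (0.0273). Over the remaining alternatives the adjusted p lay between 0.0508 and 0.194.

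CCNT1, the cyclin that makes up most P-TEFb in many cells, was at 56.2, 53.6 and 58.5 CPM in si-SNHG17 and at 60.8, 65.0 and 46.7 CPM in si-NC. The si-SNHG17 values fell inside the control range, whose low end was si-NC replicate 3. Its log2 fold change was -0.04 with a 95% interval from -0.29 to 0.21. CCNT2, the alternative cyclin, ran from 15.3 to 22.3 CPM in si-SNHG17 and from 15.6 to 19.9 CPM in si-NC, with a log2 fold change of 0.01 and an interval from -0.33 to 0.34. The edgeR adjusted p was 0.836 for CCNT1 and 0.975 for CCNT2, and the sign of each difference turned in some alternatives.

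Of the super elongation complex partners, ELL2 was called and AFF4 was not; the difference between them was not tested. ELL2, an elongation factor that keeps the polymerase from pausing along the gene body, rose 2.48-fold. AFF4, the scaffold that binds P-TEFb and the ELL proteins, did not pass the threshold.

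ELL2 (ENSG00000118985.15, chr5:95885098-95962071, minus strand) was at 82.0, 72.0 and 92.3 CPM in si-SNHG17 and at 35.1, 32.8 and 31.4 CPM in si-NC. The lowest si-SNHG17 library, replicate 2, was still above all 3 si-NC libraries. The means were 82.1 ± 10.2 and 33.1 ± 1.86 CPM (SD, n = 3), with a log2 fold change of 1.31, a standard error of 0.11 and an edgeR adjusted p of 6.06e-07. Of the genes tested, 4.77% had a larger change in either direction. An antisense gene, AC104123.1, overlaps ELL2 exons on the other strand.

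AFF4 was at 91.6, 81.8 and 100 CPM in si-SNHG17 and at 138, 130 and 83.3 CPM in si-NC. The si-NC replicates 1 and 2 were above all si-SNHG17 libraries, and si-NC replicate 3 was lower than replicates 1 and 3 of si-SNHG17. Its log2 fold change of -0.36 (standard error 0.15) had an edgeR adjusted p of 0.0713. Without si-NC replicate 3 it was -0.56 with an adjusted p of 3.21e-05, and with no filter on low counts it was -0.35 with an adjusted p of 0.0033. That last fit used 117640 degrees of freedom, against 13.9 with the filter, so the spread of AFF4 over its own libraries hardly entered its p.

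That library differed from its group by transcript length. The 11747 mRNAs with a known exon length were split into 4 equal classes by length. There, si-NC replicate 3 minus the mean of si-NC replicates 1 and 2 had a median of 0.15 on the log2 CPM scale in the shortest class. The median was 0.05 and -0.06 in the next classes and -0.22 in the longest, of 5630 bases and more. AFF4, the longest member with 9899 bases of summed exon, differed by -0.69, CCNT1 (7089 bases) by -0.43 and CCNT2 (6917 bases) by -0.34. HEXIM1, MEPCE, CDK9 and LARP7 differed by 0.07 or less in either direction, ELL2 (6046 bases) by -0.11 and HEXIM2, the shortest member with 1665 bases, by 0.18. The median fold change between the groups ran only from 0.01 to 0.07 over the same classes. The part of length in the AFF4 values was not tested.

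**Figure D3:**
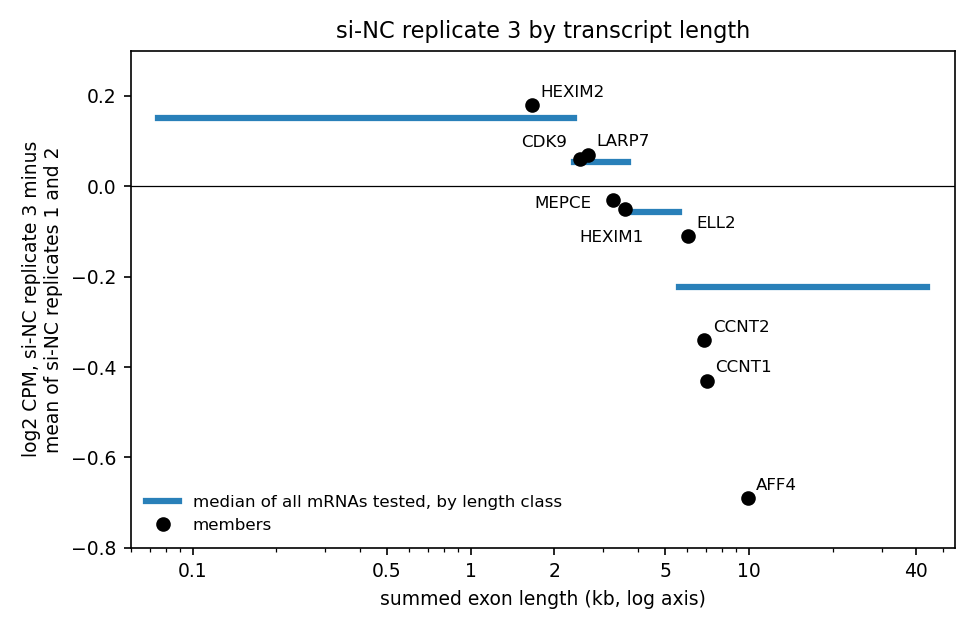
Difference in log2 CPM between si-NC replicate 3 and the mean of si-NC replicates 1 and 2, against summed exon length in kb on a log axis; black points are the 9 members and each blue bar is the median of 1 of 4 equal length classes of all mRNAs tested, drawn over its range of lengths. The bars step down from 0.15 to -0.22, and AFF4 is the lowest member at -0.69.

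Levels can be compared between genes only per length, here as CPM divided by the summed exon length of GENCODE release 29 in kb, which may differ from the annotation used for counting. In si-NC, HEXIM1 was highest at 39.7 ± 2.47 CPM per kb, followed by CDK9 at 27.8 ± 0.711 and MEPCE at 16.0 ± 0.832 (SD, n = 3). HEXIM2 (12.1 ± 1.05), AFF4 (11.8 ± 2.98) and CCNT1 (8.11 ± 1.35) came next, and each overlapped its neighbour in this order. ELL2 (5.47 ± 0.309) and LARP7 (5.09 ± 0.221) overlapped as well, and CCNT2 was lowest at 2.66 ± 0.355 CPM per kb.

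In si-SNHG17 the order was different at the top and in the middle. CDK9 led with 32.7 ± 2.61 CPM per kb, above HEXIM1 at 24.3 ± 1.06, and no library overlapped between them. ELL2 moved from rank 7 to rank 3, at 13.6 ± 1.68 CPM per kb, and MEPCE from rank 3 to rank 7, at 5.26 ± 0.0307, where it overlapped LARP7 (4.81 ± 0.588). HEXIM2 (10.5 ± 1.48) and AFF4 (9.21 ± 0.920) overlapped, CCNT1 followed at 7.91 ± 0.346, and CCNT2 was again lowest at 2.69 ± 0.508 CPM per kb.

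Within a library, the summed HEXIM1 and HEXIM2 level over the CDK9 level, both per kb, was 1.11, 0.910 and 1.20 in si-SNHG17 and 1.80, 1.97 and 1.82 in si-NC. The summed HEXIM mRNA level was thus closer to the CDK9 mRNA level in each si-SNHG17 library, and in replicate 2 it was below it. These data hold no protein amounts. MEPCE over LARP7 was 1.08, 0.974 and 1.26 in si-SNHG17 against 3.0 to 3.28 in si-NC. ELL2 over AFF4 was 1.47, 1.44 and 1.51 against 0.416, 0.413 and 0.617, so ELL2 was the higher of the pair only in si-SNHG17 libraries. HEXIM1 over HEXIM2 was 2.16 to 2.61 against 2.96 to 3.52, while CCNT1 over CCNT2 overlapped, with 2.56 to 3.42 against 2.92 to 3.19. These ratios combine member values already given and were not tested.

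**Figure D4:**
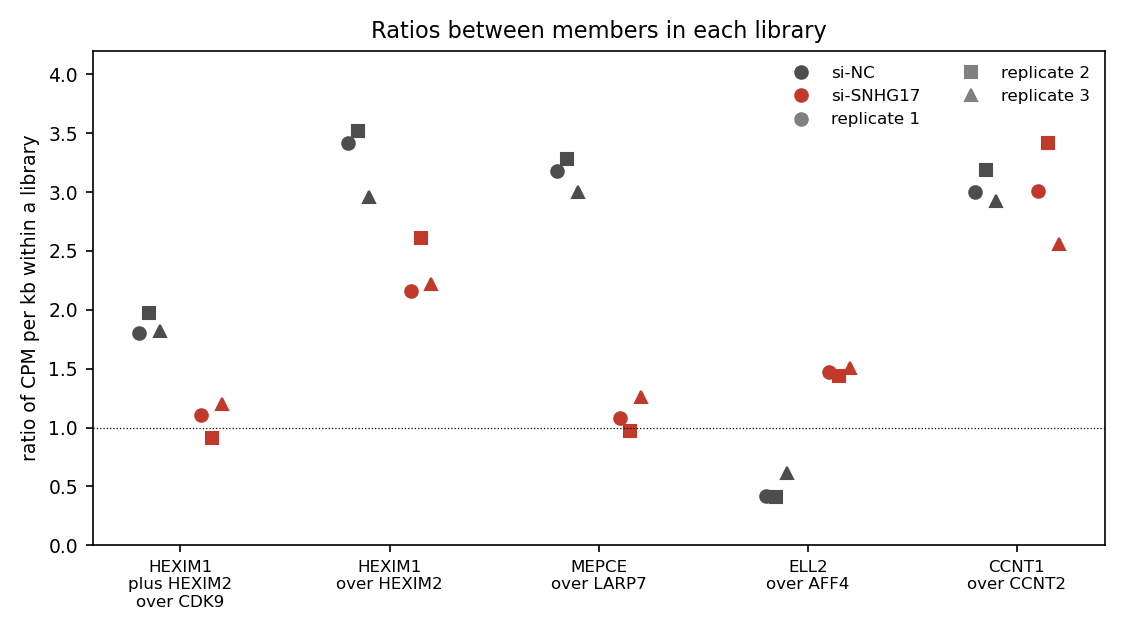
Ratios of CPM per kb between members within each library, grey for si-NC and red for si-SNHG17, with one marker shape per replicate number; the dotted line marks equal levels. The groups overlap only for CCNT1 over CCNT2, and HEXIM1 plus HEXIM2 over CDK9 lies between 1.80 and 1.97 in si-NC and between 0.910 and 1.20 in si-SNHG17.

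The promoters of the members that fell, HEXIM1 and MEPCE, are shown to see what they share. The 250 bases before the RefSeq start (GRCh38.p14) were searched on both strands for 5 motifs, whose matches are in capitals. They were the CCAAT box by that name, the GC box spelled GGGCGG, the TATA box spelled TATAAA, the E-box spelled CACGTG, and the core of the cAMP response element spelled TGACG. Matches may overlap. The HEXIM1 stretch is chr17:45148225-45148474 and the MEPCE stretch chr7:100428540-100428789, both on the plus strand.
HEXIM1 promoter: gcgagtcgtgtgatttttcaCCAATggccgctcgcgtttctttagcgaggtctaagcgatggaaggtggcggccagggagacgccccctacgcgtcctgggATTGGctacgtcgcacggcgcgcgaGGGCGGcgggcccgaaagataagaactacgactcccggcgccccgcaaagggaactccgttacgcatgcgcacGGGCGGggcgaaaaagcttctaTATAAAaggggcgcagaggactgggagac
MEPCE promoter: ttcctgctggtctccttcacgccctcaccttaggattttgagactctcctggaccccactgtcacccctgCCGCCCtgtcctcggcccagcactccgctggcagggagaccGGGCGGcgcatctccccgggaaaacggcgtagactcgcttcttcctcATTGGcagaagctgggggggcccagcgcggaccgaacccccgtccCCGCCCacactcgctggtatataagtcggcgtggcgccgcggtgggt

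Both promoters held CCAAT, with 2 matches in HEXIM1 and 1 in MEPCE, and the GC box, with 2 and 3. Among 35116 promoter stretches of the same length, 32% held CCAAT and 42.6% the GC box. CCAAT was also in LARP7, CCNT1 and CCNT2, which did not pass the threshold. The exact spelling TATAAA was found in HEXIM1 alone of the 8 members with a promoter entry, against 10.7% of all promoters. The MEPCE stretch has the related letters tatataag near its end, and spellings other than TATAAA were not searched. No E-box or TGACG was found in HEXIM1 or MEPCE. The GC box was in 7 of the 8, all but HEXIM2, so it does not set HEXIM1 and MEPCE apart. A single RefSeq start was taken per gene, and other starts of these genes were not searched. The HEXIM2 stretch, chr17:45159924-45160173, ends before the GENCODE start of that gene at 45160700. Its lack of a GC box thus holds for that stretch only. ELL2 had no entry.

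A 6-base sequence, CTCTGT, had come out of an earlier search for 3 prime UTR sequences that go with lower expression in these data, so its link with the fold changes is not independent. Of 11704 mRNAs tested with a 3 prime UTR in GENCODE release 29, 44.6% carried it. Those with none had a median log2 fold change of 0.09, those with 1 site 0.02 and those with 2 or more -0.09, while the median UTR length rose from 506 to 1417 and 3107 bases. Among the members, HEXIM1, HEXIM2, LARP7, CDK9 and ELL2 had no site, MEPCE had 1, CCNT1 2, AFF4 3 and CCNT2 5. The single MEPCE site is shown because MEPCE fell most, and it lies at chr7:100433813-100433836 on the plus strand, with the 6 bases in capitals.
MEPCE site: tttgctgacCTCTGTtctcttagg

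Of the members with a site, MEPCE fell, while CCNT1, AFF4 and CCNT2 did not pass the threshold. Of those with none, HEXIM1 fell, ELL2 rose, and HEXIM2, LARP7 and CDK9 did not pass. Without si-NC replicate 3, AFF4, which has sites, was also called lower, and CDK9, which has none, was called higher. The part of the sequence in the MEPCE value was not tested.

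The genes whose pattern over the 6 libraries was most like that of HEXIM1 were found by the root mean square difference of centred log2 CPM, among 11346 genes with at least 5 CPM. They were PEX19, a peroxisomal import factor (0.0332), the sphingomyelinase SMPD4 (0.0408) and EIF5AL1, a near-identical copy of a translation factor gene whose reads may be shared (0.0419). PEX19 was at 43.2, 39.1 and 41.7 CPM in si-SNHG17 and at 65.3, 68.5 and 66.9 CPM in si-NC. As the likeness was measured over the same libraries, it says only that these genes fell by a similar amount, with log2 fold changes of -0.70, -0.72 and -0.65.

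Other genes of transcription elongation, in 7 lists by role, had log2 fold changes from -0.86 to 0.96, inside the range from MEPCE to ELL2. Their counts stand beside 19.6% of all genes tested called higher and 19.6% lower. Without si-NC replicate 3 these shares were 21% and 20.6%. Of the other super elongation complex genes, 7 of 9 were tested, and 1 rose and 1 fell. ELL, the paralogue of ELL2, rose from 16.8 ± 3.28 to 32.7 ± 2.67 CPM (log2 fold change 0.96, edgeR adjusted p = 0.000107). MLLT1, which recruits the complex to acetylated histones, fell from 49.8 ± 2.11 to 30.2 ± 1.95 CPM (-0.72, adjusted p = 6.11e-05). MLLT3, its paralogue, had a log2 fold change of 0.20 and EAF1, an ELL partner, of 0.29, and neither passed.

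Of 16 proteins that bind 7SK or help to release P-TEFb, 3 rose and 5 fell, beside 19.6% of all genes called each way. Their median log2 fold change was -0.10. PPM1G, a phosphatase that releases P-TEFb from 7SK, fell from 233.5 ± 19.9 to 128.8 ± 2.93 CPM (-0.86, edgeR adjusted p = 2.36e-06). SRSF2 (-0.67) and HNRNPA2B1 (-0.50), RNA-binding proteins that associate with 7SK, fell as well. DDX21, a helicase found on 7SK, rose (0.68).

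Genes of the kinase targets NELF and DSIF went in both directions. Of 6 such genes, 2 rose and 2 fell, beside 19.6% of all genes tested called each way. SUPT5H, the DSIF subunit that P-TEFb phosphorylates, rose from 222.4 ± 0.878 to 308.7 ± 12.2 CPM (0.47, edgeR adjusted p = 0.00014), and the NELF subunit NELFA rose (0.70). NELFCD fell (-0.65), as did NELFE (-0.28), whose call was lost without si-SNHG17 replicate 1 or 3 or si-NC replicate 2 (adjusted p = 0.0672, 0.0525 and 0.0804). Of 12 RNA polymerase II subunits, 3 fell. They were POLR2K (-0.50), POLR2G (-0.37) and POLR2C (-0.23). POLR2A did not pass (log2 fold change 0.05, edgeR adjusted p = 0.769). It was at 248, 217 and 215 CPM in si-SNHG17 and at 245, 246 and 165 CPM in si-NC, where replicate 3 was lowest. POLR2C lost its call without any one si-SNHG17 library or without si-NC replicate 2, with edgeR adjusted p from 0.0648 to 0.103. It was also lost with library totals (adjusted p = 0.0571), no filter (0.0887) and the replicate number as a block (0.0664). Without si-NC replicate 3, 1 subunit rose and 4 fell.

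Of 10 PAF complex genes and elongation cofactors, 2 fell, the FACT histone chaperone subunits SSRP1 (-0.33) and SUPT16H (-0.34, adjusted p = 0.0657 by edgeR without si-SNHG17 replicate 1). Without si-NC replicate 3, 4 of them fell. Of 12 other transcription kinases and cyclins tested, 3 rose and 1 fell, again beside 19.6% of all genes called each way. CCNK, the cyclin of the elongation kinases CDK12 and CDK13, rose (0.53), as did CCNL1 (0.49) and the Mediator kinase CDK8 (0.46). CDK11B fell (-0.35), and its call was lost without si-SNHG17 replicate 1 or 3 or si-NC replicate 3 (edgeR adjusted p = 0.119, 0.088 and 0.0811). Of 14 Integrator subunits, which end transcription at paused polymerases, 2 rose and 1 fell, against 3 and 2 without si-NC replicate 3. INTS1 rose (0.44), INTS2 fell (-0.63), and INTS12 (0.34) lost its call in every fit that left out a library other than si-NC replicate 3, with edgeR adjusted p from 0.0525 to 0.154. It was also lost with DESeq2 (adjusted p = 0.0928), no filter (0.0719) and the replicate block (0.0694).

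Short-lived transcripts, among them immediate early genes, are known to need P-TEFb for their rapid output. Of 10 such genes, 8 rose and 1 fell, with a median log2 fold change of 0.95 against 0.01 over all genes, of which 19.6% were called higher and 19.6% lower. The list was chosen with earlier results of these data known, so its direction is not independent evidence. JUN rose from 41.2 ± 7.17 to 117.8 ± 5.22 CPM (1.51, edgeR adjusted p = 2.85e-07), and JUNB (1.14), FOSL1 (1.08) and MCL1 (1.07) rose as well. MYC, EGR1 and FOS were named after their values were seen. MYC fell from 156.8 ± 14.9 to 113.2 ± 2.90 CPM (-0.47, adjusted p = 0.000614). EGR1, among the 8, was at 1.92 to 2.40 CPM in si-SNHG17 and lost its call without any 1 of the 6 libraries, with edgeR adjusted p from 0.0554 to 0.140. It was also lost with DESeq2 (adjusted p = 0.131), no filter (0.0722) and the replicate block (0.0601). FOS had a log2 fold change of -0.20 and did not pass. Several of these genes also respond to stress and growth factor signals, whose part was not tested.

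**Figure D5:**
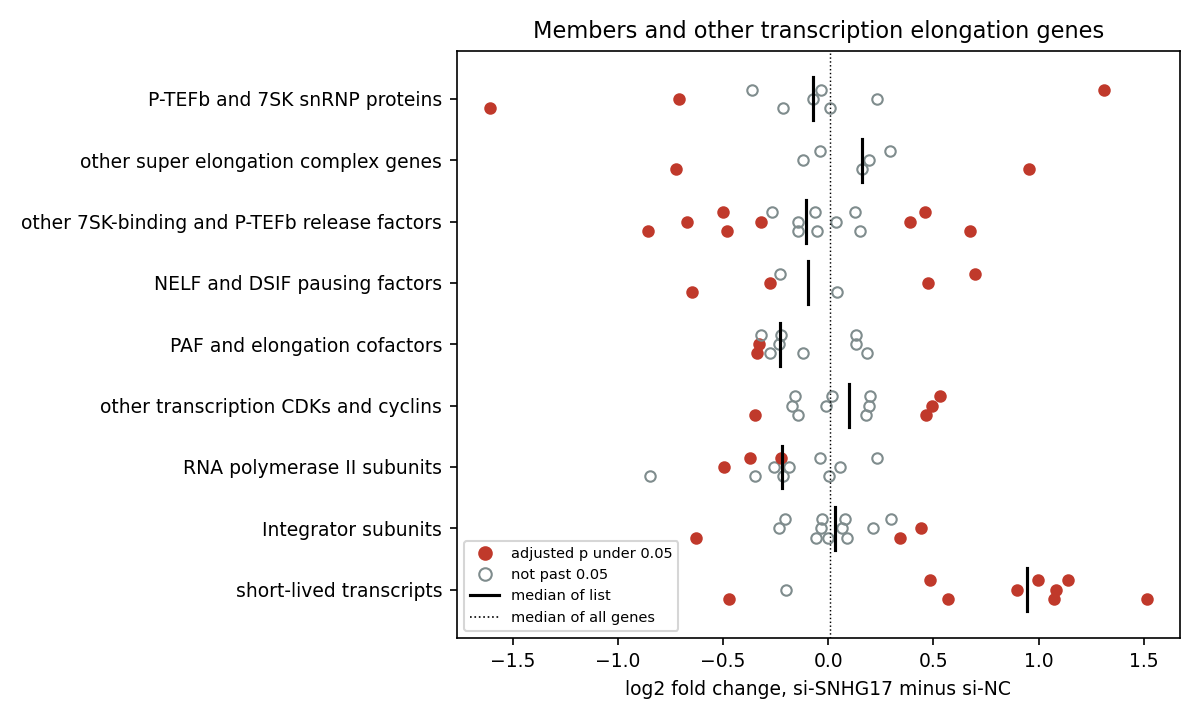
Log2 fold change, si-SNHG17 minus si-NC, of each tested gene in the member list and 8 lists of related genes; filled red points passed an adjusted p of 0.05, open points did not, the black bar is the list's median and the dotted line the median of all genes tested (0.01). The members range from -1.61 to 1.31, and the short-lived transcripts lie mostly to the right, with a median of 0.95.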

How the data were processed

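The table that the authors deposited holds raw counts, whole numbers without normalization, of 54261 genes in 6 libraries. Total RNA, per the labels' protocols, was made into single-end libraries with an Ion Total RNA-Seq kit and sequenced on an Ion Proton, and per the submitters' processing notes the build was GRCh38. The aligner, counter, annotation, strand setting and treatment of shared reads are not given in the sources read for this work. Totals ran from 8643076 to 12477214, so a count of 0 allowed up to 3 counts, or 0.240 to 0.342 CPM, for counting error only. No libraries were alike within sampling noise.

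The test was run with edgeR 4.0.16 in R 4.3.3 (filterByExpr, TMM scaling, glmQLFit and glmQLFTest, group as the only term), with Benjamini-Hochberg adjustment over 15614 genes. An adjusted p under 0.05 was called. The sign of a log2 fold change is that of si-SNHG17 less si-NC, and intervals are 95% intervals of the fit. On counts simulated for this comparison, 15337 genes passed the filter and 200 were altered. There, 34.3% of 1.5-fold, 89.6% of 2-fold and 90.9% of 4-fold alterations were called. Unaltered genes made up 8.33% of the calls, above the nominal 5%. In the data 39.1% of genes were called, far more than were altered here, so the simulated shares may not hold there. An exact two-sided permutation test of 3 against 3 cannot go below p = 0.1, the value it gave for HEXIM1, MEPCE, ELL2 and CDK9. Annotation came from GENCODE release 29 and promoters from RefSeq, read in Python 3.11.15. Alternatives were other scalings, DESeq2 1.42.0, limma-voom (limma 3.58.1), robust dispersion, other filters, no mitochondrial genes, a replicate block and leaving out each library. Named genes were the members, RN7SK, SNHG17, up to 4 genes of each list with the smallest p, and the 3 genes most like HEXIM1. MYC, EGR1, FOS and POLR2A were added after their values were seen. Members and lists were chosen with earlier results of these data known.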

Additional observations from a re-analysis of the deposited data

How the results depend on the processing

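HEXIM1 and MEPCE stayed lower and ELL2 higher, past the threshold, in all 16 alternatives, with log2 fold changes from -0.74 to -0.66, from -1.64 to -1.57 and from 1.22 to 1.40. The fit with no filter on low counts is among the 16. The limit on its degrees of freedom, given for AFF4, holds also where that fit is cited for POLR2C, INTS12 and EGR1. The number of members higher was 2 with library totals only and 2 with robust dispersion, CDK9 being added. Leaving out each library gave 1 to 2 members higher, 2 to 3 lower and 4911 to 6601 genes called. Differences near 0 changed sign: CCNT1 was 0.00077 with library totals, 0.0051 without si-NC replicate 1 and, over the fits lacking one library, between -0.17 (si-NC replicate 3 left out) and 0.060 (si-NC replicate 2 left out). CCNT2 was -0.0090 with limma-voom, -0.11 without si-NC replicate 3, and between -0.13 (si-SNHG17 replicate 3 left out) and 0.14 (replicate 2 left out). LARP7 lay between -0.16 (si-SNHG17 replicate 2 left out) and 0.021 (replicate 3 left out); the causes were not tested. Library totals made 55.5% of calls higher, against 50.0%. The replicate block gave 5579 genes, 1 member higher and 2 lower; correlations of deviations between libraries of like number were 0.06, -0.11 and -0.09, so the numbers were not taken to pair the libraries. The fewest counts behind a member were 97, for LARP7.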
